A study of Mus musculus with 123 samples.

Results

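The mitochondrial ribosomal protein genes are the nuclear genes for the proteins of the ribosome that works inside mitochondria, and in the platform annotation they carry symbols that start with Mrpl, for the large subunit, or Mrps, for the small subunit. All genes with such a symbol followed by a digit were taken, pseudogenes were left out, and each gene was represented by its brightest transcript cluster. The rule gave 71 genes (43 Mrpl and 28 Mrps) on 80 clusters, of 22180 genes with a single symbol on the array. A further 7 genes of the family (*Mrpl30*, *Mrpl33*, *Mrpl41*, *Mrpl43*, *Mrpl44*, *Mrpl53* and *Mrps6*) shared every cluster with another symbol and were not used here. Of the 71 genes, 67 passed the expression filter, which left 10942 genes of all kinds for testing.

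Liver RNA came from female mice of 22 strains of the Collaborative Cross (CC), a panel of recombinant inbred mice bred from several founder strains, with 1 Affymetrix MoGene 2.1 ST array per mouse. A high-protein (HP) diet was fed to 63 mice and a high-fat high-sucrose (HS) diet to 60 mice for 8 weeks, after 2 weeks on a synthetic AIN-76A diet that both groups shared, and the mice, 6 to 9 weeks old on arrival, were fasted for 4 h before the liver was taken. Each strain had 4 to 6 mice, with 2 or 3 per strain and diet. No mouse on the AIN-76A diet alone was analysed here, so each diet difference sets one diet against the other. All values are log2 intensities, and each replicate was a separate mouse.

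Mitochondria carry a small genome of their own that encodes core subunits of the respiratory chain and of ATP synthase, and the mitochondrial ribosome translates only the messages of that genome. Its RNAs are transcribed inside the organelle, while its proteins are made in the cytosol, imported and assembled onto them. Many of these proteins descend from those of bacterial ribosomes, and others were added later in the history of mitochondria. In the liver, hepatocytes are rich in mitochondria, and oxidation of fatty acids, urea synthesis and gluconeogenesis all depend on mitochondrial enzymes. NRF1, GABP (a dimer whose DNA-binding part is GABPA) and YY1 are transcription factors known for binding the promoters of nuclear genes for mitochondrial proteins.

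The letters of these factors' motifs were looked for in the stretch from 250 bases before to 50 bases after the start of each gene, in RefSeq sequences of the assembly GRCm38.p6, the reference genome. Of the 71 genes, 62 had such a sequence. The NRF1 motif, searched as GCGCANGCG on both strands, was in 14 of the 62 (22.6%), against 7.03% of all 27025 genes with a sequence and 15.3% of the 8665 of them that were tested. The GABPA motif, searched as CCGGAAG on both strands, was in 23 (37.1%), against 9.93% of all genes and 1734 of the 8665 tested. The YY1 motif, searched as AAGATGGC on both strands, was in 12 (19.4%), against 3.19% and 5.38%. At least 1 of the 3 motifs was in 39 of the 62 genes (62.9%), against 17.8% of all genes and 34.8% of those tested. These are matches of letters and not measured binding.

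The sequences that follow show such matches, in capitals, in genes to which the results return. *Mrpl32* starts 204 bases from *Psma2*, a proteasome subunit gene that runs the other way, and all the bases between both starts are given, with 3 NRF1 matches of which 2 overlap. The other genes are shown as 30 bases around their match, with GABPA in *Mrpl58* and *Mrps27*, NRF1 in *Mrpl9* and YY1 in *Mrpl42* and *Mrpl35*. All are written 5′ to 3′ on the gene's own strand.
Mrpl32, chr13:14613038-14613241, minus strand: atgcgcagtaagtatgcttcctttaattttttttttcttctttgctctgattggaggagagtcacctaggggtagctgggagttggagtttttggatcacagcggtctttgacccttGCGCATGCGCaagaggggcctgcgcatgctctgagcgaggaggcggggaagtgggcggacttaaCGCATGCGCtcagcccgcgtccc
Mrpl58, chr11:115403731-115403760, plus strand: accgCCGGAAGagtgagcaCCGGAAGcggt
Mrps27, chr13:99344727-99344756, plus strand: tggtaggaccaCTTCCGGcggaggcgggct
Mrpl9, chr3:94443298-94443327, plus strand: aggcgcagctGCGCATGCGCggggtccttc
Mrpl42, chr10:95501904-95501933, minus strand: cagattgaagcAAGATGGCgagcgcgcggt
Mrpl35, chr6:71823743-71823772, minus strand: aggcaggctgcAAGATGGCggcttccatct

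Before the comparisons, the mice were checked against their labels. The hepatocyte list (*Alb*, *Apoa1*, *Cps1* and others) was measured in full, with means of 10.1 to 13.2 for its 8 genes, and 4 of 6 cholangiocyte markers were not among the genes tested. In profile, all mice but 1 were closest to other mice of their own strain. An HS mouse labelled CC059/TauUnc was not: its profile correlated at 0.74 with CC035/Unc and at 0.14 with its labelled strain. A CC071/TauUnc HP mouse had an *Xist* level of 2.72, against 9.16 to 10.6 in the other mice, although all mice are labelled female. Both mice were kept under their labels, and values without them are given where they matter. Array medians ran from 2.97 to 3.16.

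The first comparison asked whether the family differed between livers of the HP and HS diets. By limma *Mrpl15* was the 1 gene higher in HP livers and *Mrpl58* the 1 gene lower, and the other 65 of 67 did not pass an adjusted *p* of 0.05 (Benjamini-Hochberg over all 10942 genes tested). This was 2.99% of the family, against 11.4% of all genes tested, and each direction took 1.49% of the family, against 6.28% higher and 5.13% lower in HP livers among all genes. At an unadjusted *p* under 0.05 there were 11 of the 67 (16.4%), against 25.0% of all genes. The median difference (HP minus HS) was 0.01 (log2), against -0.01 over all genes, with 37 differences above 0 and 30 below.

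The differences were small as well as few. The median size of a difference was 0.03 (log2), against 0.06 over all genes, and 61 of 67 were smaller than 0.1. The 95% interval of the difference lay within 0.2 of 0 on either side, a change of at most 14.9%, for 60 of the 67 genes and within 0.1 for 19. With strain in the model as a block, which takes strain differences out of the error, the counts within 0.2 and 0.1 were 62 and 29. The mean over the 67 genes was 6.45 ± 0.083 in HP livers (SD, n = 63; 6.30 to 6.70) and 6.45 ± 0.090 in HS livers (SD, n = 60; 6.26 to 6.72), and the diets overlapped almost entirely.

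**Figure D1:**
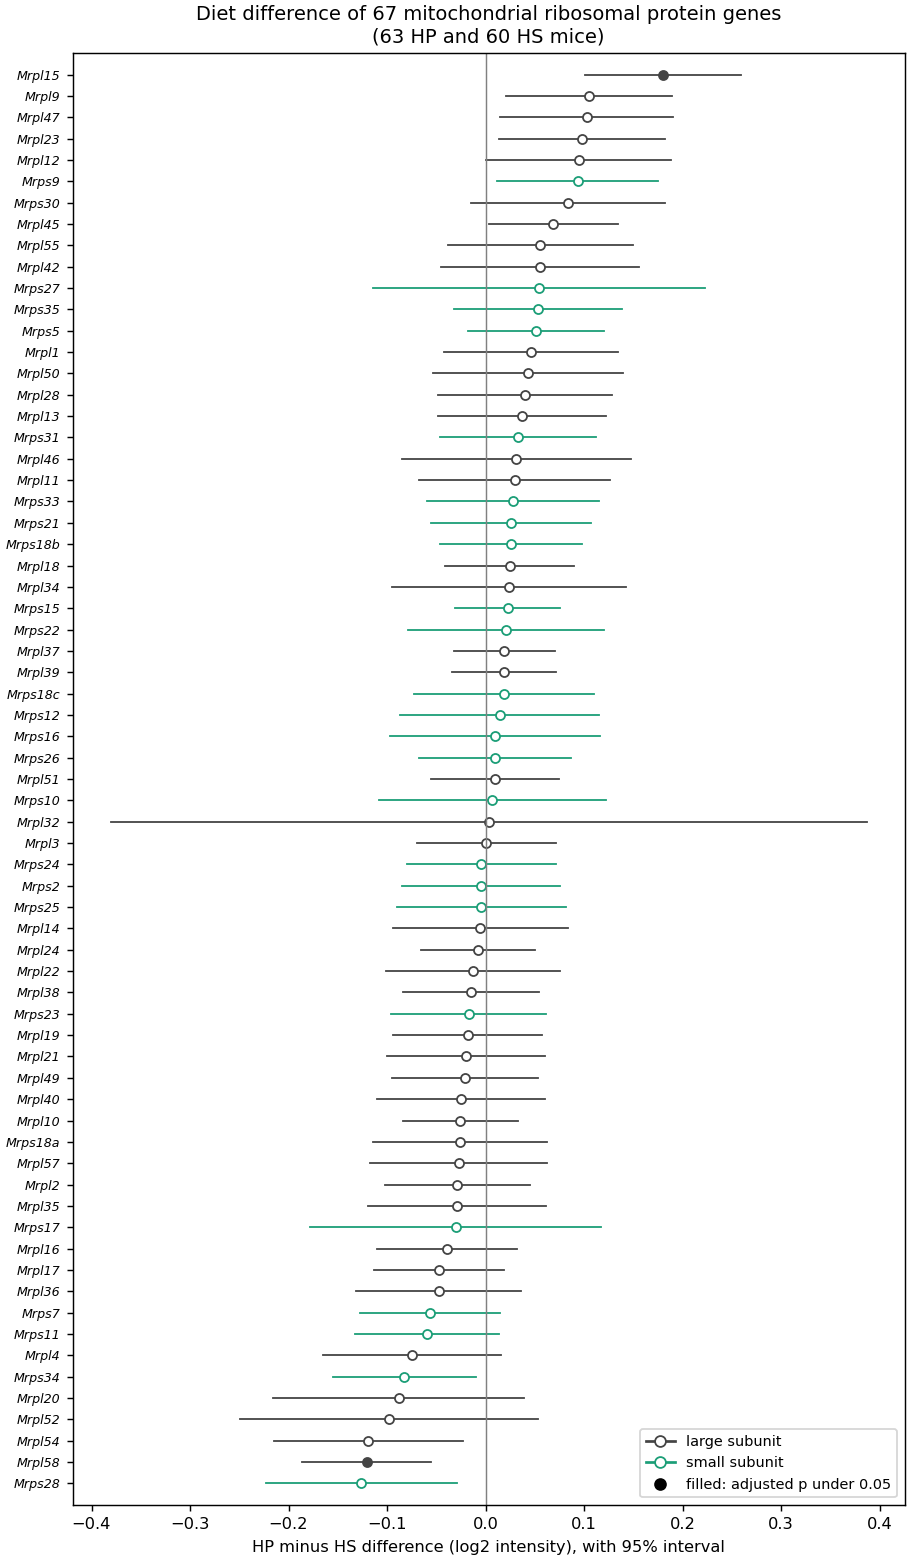
The HP minus HS difference (x axis, log2 intensity) of each of the 67 genes (y axis) with its 95% interval, filled where the adjusted p was under 0.05 and coloured by subunit. Most intervals cross 0, the 2 filled genes are *Mrpl15* and *Mrpl58*, and *Mrpl32* has the widest interval.

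*Mrpl15* encodes the counterpart of the bacterial large subunit protein uL15. It ran from 7.05 to 7.94 with a median of 7.48 in HP livers, and from 6.82 to 7.79 with a median of 7.33 in HS livers. Most of both ranges overlapped, while the strain means were higher in HP livers in 20 of 22 strains. Means were 7.49 ± 0.22 in HP livers and 7.31 ± 0.22 in HS livers (SD, n = 63 and 60), a difference of 0.18 (SE 0.040, 1.13-fold, adjusted *p* = 0.000629 by limma). Within strains the difference ran from -0.20 in CC024/GeniUnc, which with CC063/Unc (-0.01) was lower in HP livers, to 0.42 in CC041/TauUnc.

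*Mrpl58*, known earlier as *Ict1*, encodes a peptidyl-tRNA hydrolase that became a fixed protein of the large subunit and can release peptides from stalled ribosomes. It ran from 7.20 to 8.01 with a median of 7.59 in HP livers, and from 7.25 to 8.24 with a median of 7.70 in HS livers. The diets overlapped here too, and 17 of 22 strains had the lower mean in HP livers. Means were 7.58 ± 0.17 in HP livers and 7.70 ± 0.19 in HS livers (SD, n = 63 and 60), a difference of -0.12 (SE 0.033, adjusted *p* = 0.00766 by limma). The call was lost without the mice numbered 1 (adjusted *p* = 0.0785) or 2 (adjusted *p* = 0.0901) in every strain and diet, fits with fewer mice in which the difference was -0.13 and -0.11. Within strains the difference ran from -0.33 in CC004/TauUnc to 0.15 in CC002/Unc.

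**Figure D2:**
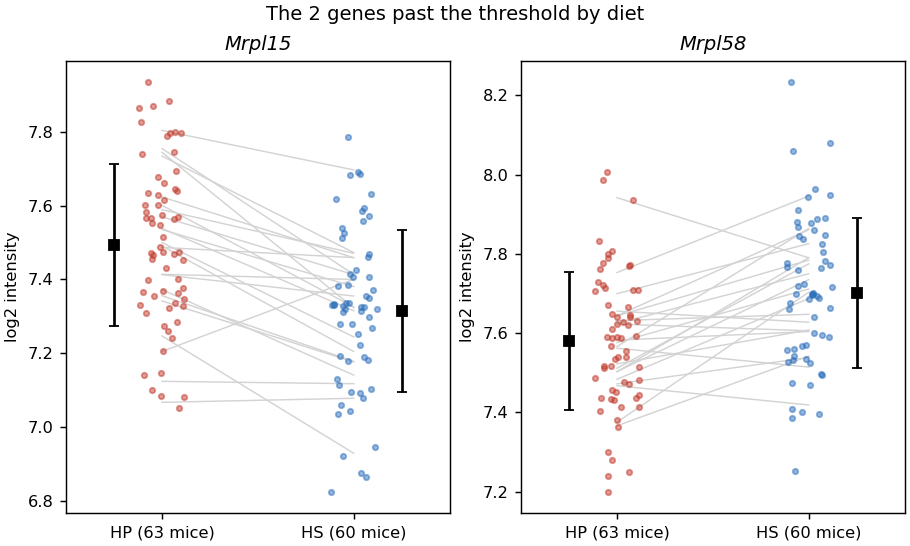
Levels (y axis, log2 intensity) of *Mrpl15* and *Mrpl58* in each HP mouse (left, red) and HS mouse (right, blue), with grey lines joining the 2 diet means of each strain and black squares for mean and SD. The groups overlap widely, while most lines run down to HS for *Mrpl15* (20 of 22 strains) and up to HS for *Mrpl58* (17 of 22).

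The next genes by *p* did not pass the threshold. On the side of higher levels in HP livers these were *Mrpl9* (difference 0.11, SE 0.043, adjusted *p* = 0.0928 by limma), the counterpart of bacterial bL9, and 2 proteins near the exit of the peptide tunnel, *Mrpl47* (0.10, SE 0.044, adjusted *p* = 0.122) and *Mrpl23* (0.10, SE 0.043, adjusted *p* = 0.126). On the other side they were *Mrps28* (-0.13, SE 0.049, adjusted *p* = 0.0780), related to bacterial bS1, *Mrpl54* (-0.12, SE 0.048, adjusted *p* = 0.0946) and *Mrps34* (-0.08, SE 0.037, adjusted *p* = 0.134), both added in mitochondria. Leaving out CC004/TauUnc brought *Mrpl47* past the threshold (adjusted *p* = 0.0483), and leaving out CC036/Unc did so for *Mrps34* (adjusted *p* = 0.0481).

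With strain as a block, 6 of the 67 genes (8.96%) passed, against 23.2% of all genes. These were *Mrpl15* and *Mrpl58* together with *Mrpl9* (0.10, SE 0.038, adjusted *p* = 0.0375), *Mrpl45* (0.07, SE 0.028, adjusted *p* = 0.0477), *Mrps30* (0.09, SE 0.034, adjusted *p* = 0.0335) and *Mrps28* (-0.12, SE 0.037, adjusted *p* = 0.00899). *Mrpl45* encodes the protein that ties the ribosome to the inner membrane at the tunnel exit, and *Mrps30*, in spite of its symbol, a protein of the large subunit. Both are named here after their values were seen. In both fits the share called was lower in the family than over all genes.

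Grouped by the subunit that holds the protein, *Mrpl15* and *Mrpl58* belong to the large subunit, where 41 of 43 genes did not pass and the median difference was 0.0008. None of 24 genes of the small subunit passed in either direction by limma, and their median difference was 0.01. At an unadjusted *p* under 0.05 the 11 genes were *Mrpl9*, *Mrpl12*, *Mrpl15*, *Mrpl23*, *Mrpl45*, *Mrpl47*, *Mrpl54*, *Mrpl58*, *Mrps9*, *Mrps28* and *Mrps34*. *Mrpl12*, whose protein in the factor-binding stalk has also been reported to bind the mitochondrial RNA polymerase, averaged 7.62 ± 0.28 in HP livers and 7.52 ± 0.24 in HS livers (SD, n = 63 and 60; adjusted *p* = 0.197 by limma). By origin, 1 of 41 genes of bacterial descent was called, higher, and 1 of 26 added in mitochondria, lower.

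Cell type markers were counted by diet in the same livers, where 5.13% of all genes were lower and 6.28% higher in HP livers. None of 8 sinusoidal endothelial and 6 lymphocyte markers passed, and of 8 hepatocyte markers only *Cps1* did, higher in HP livers. Of 10 Kupffer cell markers, 2 were lower in HP livers and 8 did not pass, with no difference above 0. Their summed level (linear intensity) ran from 618 to 3636 (median 1882) in HP livers and from 1160 to 5423 (median 2195) in HS livers. Of 8 stellate cell markers, 2 were lower in HP livers and 6 did not pass, also with no difference above 0. Their sums were 1328 to 2997 (median 2240) in HP livers and 1640 to 3166 (median 2461) in HS livers. The 6 lymphocyte markers and the 2 cholangiocyte markers tested had no difference above 0 either. Among sinusoidal endothelial markers 4 of 8 lay above 0, and among hepatocyte markers 3 of 8. In whole liver, fewer cells of a type and less RNA per cell cannot be told apart, and the part of these cells in the diet results was not tested. A score of circadian clock genes was -0.36 ± 1.60 in HP livers and 0.38 ± 1.58 in HS livers (SD, n = 63 and 60), and with that score as a covariate the same 2 genes were called, *Mrpl15* at 0.19 and *Mrpl58* at -0.13.

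Other genes of the pathway were set beside the family. Respiratory chain and ATP synthase genes, many of which encode partners of the proteins that this ribosome makes, were chosen by symbol, which also took assembly factors of complex I (symbols starting with Ndufaf). Of 79 tested, 53 did not pass, and 25 were higher and 1 lower in HP livers, beside 6.28% and 5.13% of all genes. The median difference of the 79 was 0.08. Among them *Atp5g3*, for the membrane ring of ATP synthase, averaged 8.38 ± 0.14 in HP livers and 8.22 ± 0.13 in HS livers (adjusted *p* = 6.12e-07), *Atp5b*, for its catalytic subunit, 11.7 ± 0.095 and 11.6 ± 0.085 (adjusted *p* = 1.85e-05), and *Cox7a1*, for a cytochrome oxidase subunit, 4.79 ± 0.47 and 4.29 ± 0.43 (adjusted *p* = 1.53e-06; SD, n = 63 HP and 60 HS mice, limma). The cytosolic ribosomal protein list was also chosen by symbol (Rpl or Rps and a digit) and so holds some genes that are not ribosomal proteins, such as *Rps19bp1*. Of its 48 genes none passed in either direction by limma, and the median difference was -0.03. *Rps12*, with the smallest *p* of these, had a difference of -0.11 (SE 0.041, adjusted *p* = 0.0688).

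**Figure D3:**
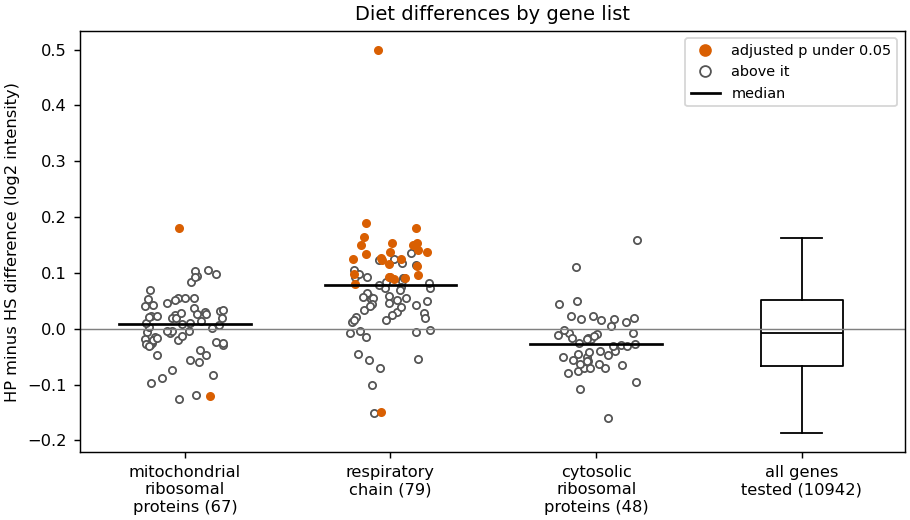
HP minus HS differences (y axis, log2 intensity) of single genes in the mitochondrial ribosomal protein, respiratory chain and cytosolic ribosomal protein lists, each chosen by symbol, filled where the adjusted p was under 0.05, with a box for all 10942 genes tested (quartiles, whiskers at the 5th and 95th percentiles). The medians are 0.01, 0.08, -0.03 and -0.01, in that order.

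The lists that follow stand beside 11.4% of all genes called by diet. None of 11 translation factors passed by limma, *Guf1* (an elongation factor of the LepA family) having the smallest *p* (difference 0.12, adjusted *p* = 0.0680). Of 23 genes for assembly of the ribosome and processing of its RNA, *Trub2*, a pseudouridine synthase, was lower in HP livers (5.50 ± 0.27 against 5.65 ± 0.26 in HS livers, adjusted *p* = 0.0308) and 22 did not pass. Of 18 mitochondrial tRNA synthetase genes only *Fars2*, which charges the phenylalanine tRNA, passed and was higher in HP livers (0.08, adjusted *p* = 0.0211). Of 7 ribosomal proteins listed under other symbols, only 3 were among the genes tested. These were *Dap3*, *Ptcd3* and *Gadd45gip1*, which did not pass by limma, with differences of 0.08, 0.16 and 0.05 and adjusted *p* of 0.141, 0.371 and 0.782.

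The genes that transcribe and keep the mitochondrial genome, and the regulators of mitochondrial growth, were counted in the same way, beside 11.4% called over all genes. No difference between lists was tested. Of 17 genes for mitochondrial transcription and RNA upkeep 3 were higher in HP livers and 16 had a difference above 0. These were *Grsf1*, an RNA-binding protein of mitochondrial RNA granules (8.60 ± 0.18 in HP livers and 8.45 ± 0.16 in HS livers, adjusted *p* = 0.000685), *Tfam*, which packs and helps transcribe mitochondrial DNA (5.89 ± 0.23 and 5.74 ± 0.28, adjusted *p* = 0.0214), and *Polg2*, a subunit of its DNA polymerase (4.70 ± 0.29 and 4.55 ± 0.28, adjusted *p* = 0.0380). Of 9 regulators of mitochondrial biogenesis 2 were higher in HP livers, the coactivators *Ppargc1a* (7.32 ± 0.35 and 6.97 ± 0.41, adjusted *p* = 0.000107) and *Ppargc1b* (6.09 ± 0.41 and 5.85 ± 0.45, adjusted *p* = 0.0275; SD, n = 63 HP and 60 HS mice, limma). The levels of *Yy1*, whose motif was searched above, differed by 0.08 (SE 0.033, adjusted *p* = 0.112).

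The second comparison asked how the family varied between strains. By the limma F test over 22 strains, 56 of 67 genes passed (83.6%), against 81.3% of all genes tested, a share near the background. Without the mice numbered 1 in every strain and diet the count was 37 (55.2%), against 67.7% of all genes, and without those numbered 2 it was 42 (62.7%), against 64.0%. The large subunit had 37 of 43 and the small subunit 19 of 24. For the typical gene the spread was narrow: the lowest and highest strain means were a median of 0.54 (log2) apart, against 0.71 over all genes, and the SD of mice within a strain had a median of 0.20, against 0.24. Strain means spanned at least 1 (log2) in 5 of the 67 genes (7.46%), *Mrpl32*, *Mrps17*, *Mrps27*, *Mrpl42* and *Mrps10*, against 27.5% of all genes. The coefficient of genetic determination, *g*2, had a median of 0.13 in the family and 0.17 over all genes. It is a heritability estimate that allows for the doubling of additive variance under inbreeding. It is therefore not the plain share of variance between strains.

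**Figure D4:**
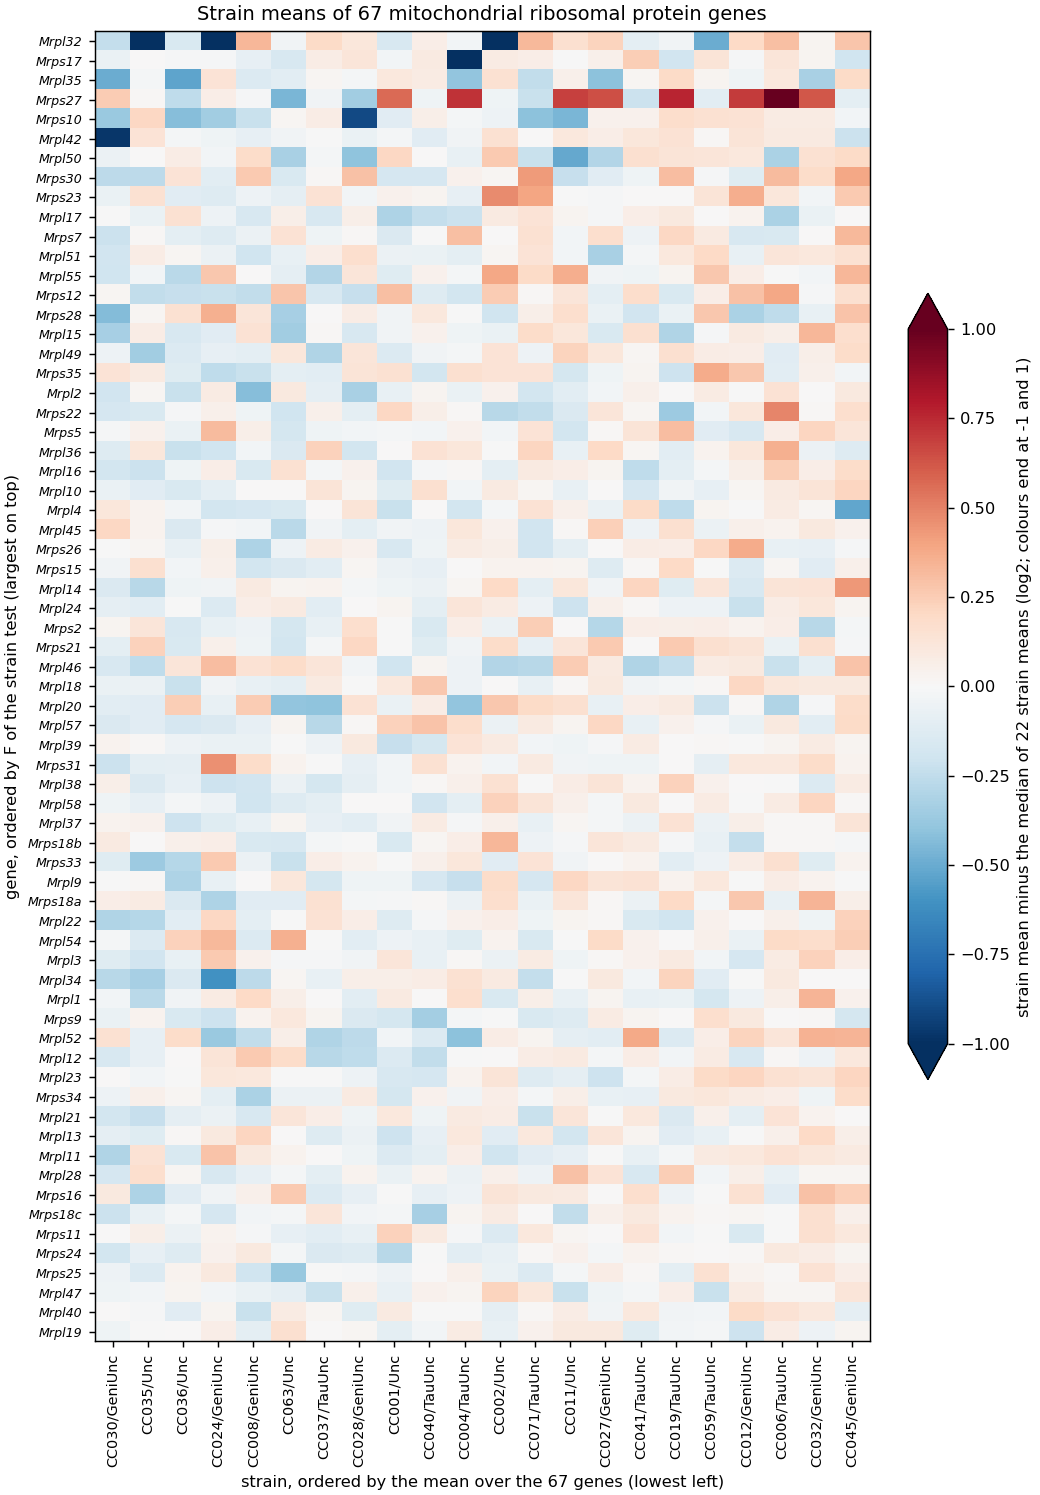
Strain means of the 67 genes (y axis, largest F on top) in 22 strains (x axis, ordered by the mean over the 67 genes), as differences from each gene's median strain (colour, log2). Single dark cells stand out in *Mrpl32* (CC002/Unc, CC024/GeniUnc and CC035/Unc), *Mrps17* (CC004/TauUnc), *Mrps10* (CC028/GeniUnc) and *Mrpl42* (CC030/GeniUnc), *Mrps27* is high in 8 strains, and most other cells are pale.

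*Mrpl32*, on chromosome 13, had the largest F (20.7, adjusted *p* = 8.43e-27 by limma). It encodes the counterpart of bacterial bL32, which the m-AAA protease of the inner membrane trims before it enters the large subunit. In the 6 CC002/Unc mice its level was 1.68, 2.77 and 3.17 in HP livers and 2.36, 2.41 and 3.63 in HS livers. The 4 CC024/GeniUnc mice had 2.36 and 3.36 in HP livers and 2.95 and 3.72 in HS livers. The 5 CC035/Unc mice had 2.18, 2.45 and 3.76 in HP livers and 2.18 and 2.68 in HS livers. All 15 mice were low on either diet. The 3 strain means, 2.65 to 3.10, lay below 3.34, a level not exceeded by the means of 95% of the clusters that did not pass the expression filter.

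In the other 19 strains the *Mrpl32* means ran from 5.12 to 5.94, with 1 low mouse among them. That was the CC059/TauUnc HS mouse whose profile was closest to CC035/Unc, at 2.50, while the other CC059/TauUnc mice had 4.88, 5.53 and 5.91 in HP livers and 5.46 and 6.41 in HS livers. The remaining 107 mice had 4.34 to 6.65, so that they did not overlap with the 15. The 15 mice of the 3 low strains averaged 2.78 ± 0.63 and the 108 others 5.67 ± 0.51 (SD). With each of the 15 mice set to at least 3.34, the level of dim clusters given above, the signal was at least 4.76-fold lower in the 3 strains. Probes were not checked for sequence differences between strains, here or for the low strains of the genes below. Whether such low signals reflect RNA level or probe sequence was not tested, and *Mrpl32* had no second cluster to compare. Without the low CC059/TauUnc mouse the F was 29.1. The HP minus HS difference was 0.003 (SE 0.19, 95% interval -0.38 to 0.39), or 0.03 (SE 0.094, -0.16 to 0.22) with strain as a block.

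*Psma2*, which starts beside *Mrpl32* and is read the other way from the printed stretch, had means of 8.24 to 8.63 in the 3 strains and 8.03 to 8.55 in the others, and so was not low in them. *Arid4b*, the nearest tested gene on the other side, had 5.71 to 5.87 in the 3 strains and 5.70 to 6.09 in the others. These neighbours, and those of the next genes, are named after the values of the family were seen.

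*Mrps17* (chromosome 5, F 18.6, adjusted *p* = 5.47e-25), the counterpart of bacterial uS17 in the body of the small subunit, was low in a single strain. The 6 CC004/TauUnc mice had 4.63, 4.66 and 5.11 in HP livers and 4.72, 4.85 and 5.45 in HS livers, and the 117 other mice 5.60 to 7.11. No mouse of CC004/TauUnc reached another strain's level, which was true of no other gene and strain in the family. A strain wholly below or above all other mice was found in 1.49% of the family and 1.09% of all genes. The mean was 1.64 (log2, 3.12-fold) lower than in the other mice. Without CC004/TauUnc the F fell to 1.64 and the call was lost (adjusted *p* = 0.0704 by limma), so the strain difference of *Mrps17* rests on that strain.

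A second cluster of *Mrps17*, dimmer than the first, was also lowest in CC004/TauUnc (mean 3.67, mice 3.13 to 4.24, against 3.57 to 5.15 in the others, which overlap). Over the 22 strain means both clusters correlated at 0.69. The tested genes on either side, *Zfp11* and *Nipsnap2*, were also toward the low end in CC004/TauUnc. *Zfp11* had a mean of 4.04 there, against 3.92 to 5.25 with a median of 4.89 in the other strains, and *Nipsnap2* had 5.85, against 5.84 to 6.62 with a median of 6.29. Their strain means correlated with those of *Mrps17* at 0.53 and 0.38 over 22 strains.

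*Mrpl42* and *Mrps10* each had 1 strain well below the rest, with a slight overlap. For *Mrpl42* (chromosome 10, F 10.6, adjusted *p* = 1.40e-16), a large subunit protein added in mitochondria, the CC030/GeniUnc mice had 5.87, 5.92 and 6.11 in HP livers and 5.58, 5.59 and 6.13 in HS livers, against 6.11 to 7.29 in the 117 others, 1 of which lay below the highest CC030/GeniUnc mouse. The mean was 1.99-fold lower than in the others. Without CC030/GeniUnc the F fell to 1.88 (adjusted *p* = 0.0289 by limma). Its tested neighbours *5730420D15Rik* and *Ube2n* were lowest in the same strain, at 3.16 against 3.38 to 5.12, and at 5.82 against 5.86 to 6.31 in the other strains' means.

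For *Mrps10* (chromosome 17, F 12.5, adjusted *p* = 7.56e-19), the counterpart of bacterial uS10 in the head of the small subunit, the CC028/GeniUnc mice had 4.88, 5.19 and 5.20 in HP livers and 4.54, 4.86 and 4.87 in HS livers, against 5.17 to 6.27 in the 117 others, 3 of which lay below the highest CC028/GeniUnc mouse. The mean was 1.79-fold lower. Without this strain the F was 7.69 (adjusted *p* = 6.14e-12 by limma), with CC011/Unc (5.37) then lowest and CC035/Unc (6.04) highest. Of the tested genes beside it, *Gm4945* had 8.18 in CC028/GeniUnc and 7.77 to 8.95 in the other strains. *1700001C19Rik* had 3.51 in CC028/GeniUnc and 3.30 to 6.26 in the other strains. Over 22 strains the strain means of *Gm4945* and *1700001C19Rik* correlated with those of *Mrps10* at 0.22 and 0.82.

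**Figure D5:**
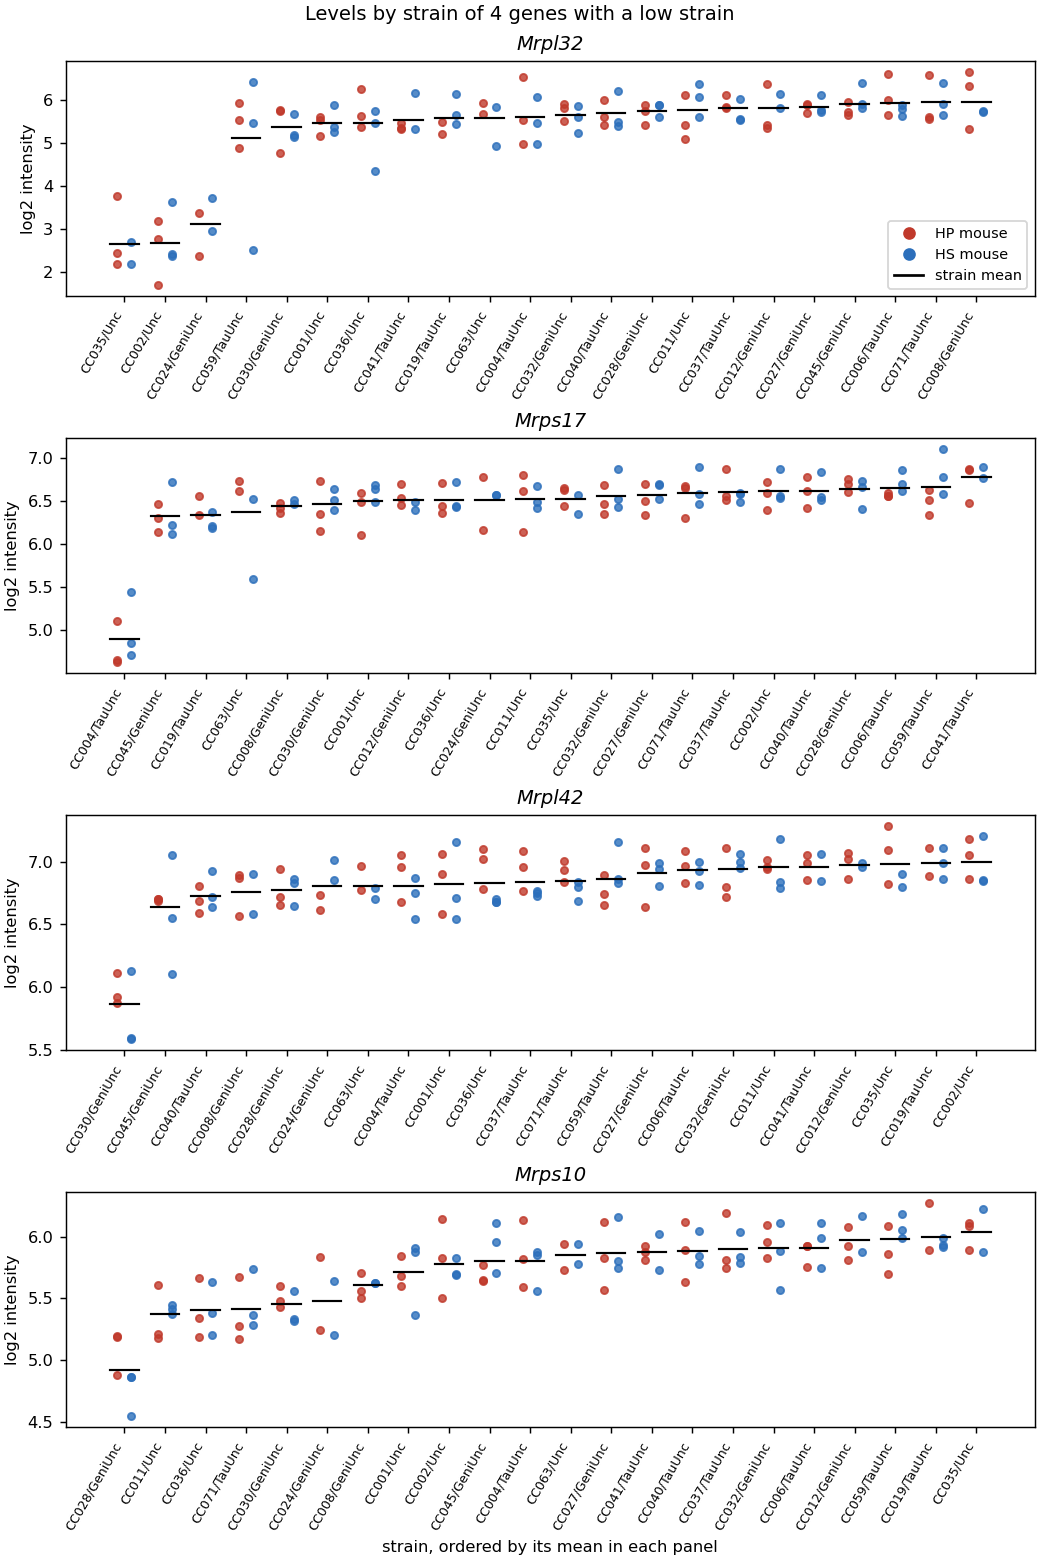
Levels (y axis, log2 intensity) of *Mrpl32*, *Mrps17*, *Mrpl42* and *Mrps10* in each HP mouse (red) and HS mouse (blue) by strain (x axis, ordered by the strain mean, black line). *Mrpl32* is low in 3 strains and in 1 CC059/TauUnc mouse, and the other panels have 1 low strain each, on both diets.

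*Mrps27* (chromosome 13, F 18.5, adjusted *p* = 6.01e-25), a small subunit protein with pentatricopeptide repeats, varied in another way. Its strain means ran from 5.30 in CC063/Unc to 6.75 in CC006/TauUnc, and the largest step between neighbours in that order, 0.31, lay between CC030/GeniUnc (6.02) and CC001/Unc (6.32), with 14 strains below it and 8 above. Mice of both sides overlapped: CC024/GeniUnc, below the step, reached 6.48, and CC004/TauUnc, above it, went down to 5.88. Elsewhere in the order, neighbours were closer than the within-strain SD of 0.24.

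*Mrpl35* (chromosome 6, F 18.6, adjusted *p* = 5.58e-25), the counterpart of bacterial bL35, reached a like F over a narrower range, since its mice varied little within strains (SD 0.12). CC036/Unc (6.49) and CC030/GeniUnc (6.53) were lowest and CC045/GeniUnc (7.22, mice 7.16 to 7.28) and CC019/TauUnc (7.22, mice 7.14 to 7.41) highest, and the mice of the lowest 2 strains (6.33 to 6.65, and 6.45 to 6.62) did not overlap with those of the highest 2. These strains were picked as the ends of the gene's own order, so the gap between them is a description and not a test. *Mrpl35* had the highest *g*2 of the family, 0.63. For *Mrpl50* (F 9.23, adjusted *p* = 1.01e-14) the order ran from 7.54 in CC011/Unc, followed by CC028/GeniUnc (7.65), to 8.31 in CC002/Unc.

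The other genes of the largest F were *Mrps30* (7.32), *Mrps23* (6.30), *Mrpl17* (5.85), *Mrps7* (5.52) and *Mrpl51* (5.47), with adjusted *p* between 6.28e-12 and 6.45e-09 by limma. *Mrps30* ran from 5.99 in CC035/Unc to 6.68 in CC071/TauUnc, and *Mrps23*, of the small subunit's body, from 6.22 in CC024/GeniUnc to 6.82 in CC002/Unc. *Mrpl17*, the counterpart of bL17, ran from 7.29 in CC006/TauUnc to 7.76 in CC036/Unc. *Mrps7*, the counterpart of uS7 in the head, ran from 7.76 in CC030/GeniUnc to 8.30 in CC045/GeniUnc, and *Mrpl51* from 5.76 in CC027/GeniUnc to 6.28 in CC059/TauUnc. In these genes the steps between neighbouring strains were at most 0.13, below the within-strain SD of each.

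At the other end were 3 genes of the large subunit, *Mrpl19* (F 0.81, adjusted *p* = 0.705), *Mrpl40* (F 0.91, adjusted *p* = 0.595) and *Mrpl47* (F 1.25, adjusted *p* = 0.242 by limma). *Mrpl19*, at the interface of both subunits in bacteria, had strain means from 4.92 in CC012/GeniUnc to 5.28 in CC063/Unc and an estimated *g*2 of -0.018, below 0 because strains differed less than mice within them. *Mrpl40*, in the central protuberance, ran from 4.63 in CC008/GeniUnc to 5.05 in CC012/GeniUnc. *Mrpl47* passed with array weights (adjusted *p* = 0.0410) and with the mean of its 2 clusters (adjusted *p* = 0.0102). The second of these clusters was dim, with a mean of 2.74, and did not pass the expression filter.

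The family as a whole was also compared between strains. The mean over the 67 genes ran from 6.36 in CC030/GeniUnc to 6.55 in CC045/GeniUnc, and the within-strain SD was 0.076. CC030/GeniUnc lay below the median strain in 51 of the 67 genes and was lowest in 7, and CC045/GeniUnc lay below it in 14. CC035/Unc was lowest in 9 genes, the most of any strain, and CC002/Unc was highest in 8. The lowest and the highest place thus went to many different strains.

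Whether the diet difference itself varied between strains was tested by the interaction of strain and diet. None of the 67 genes passed by limma, against 0.0183% of all genes (2 of 10942). The smallest *p* belonged to *Mrpl46* (unadjusted 0.00603), of the central protuberance, and *Mrpl23* (unadjusted 0.00608), both at an adjusted *p* of 0.707, followed by *Mrps25* (adjusted *p* = 0.917) and *Mrps34* (adjusted *p* = 0.976). With weights for arrays these 4 genes passed by limma (adjusted *p* of 0.0120 to 0.0409). In that fit the 4 were 5.97% of the family, and 234 of all genes were called (2.14%), the 4 among them.

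Genes of the family moved together weakly from mouse to mouse. The median Pearson correlation over its 2211 pairs was 0.11 across mice, against 0.01 over all pairs of tested genes, 0.18 within the respiratory chain and 0.15 within the cytosolic ribosomal proteins. After the mean of each strain and diet was removed it was 0.09, against 0.02, 0.15 and 0.17. The genes of a pair were measured on the same arrays, and mice share strains and diets, so the values are descriptions. The closest pair after that step was *Mrpl34* with *Mrpl52* (0.87), and both were followed by *Mrpl58* (0.74 with each). Members of the family within 2 Mb of each other in the RefSeq table (16 pairs) were compared by their strain means. These correlated from -0.24, in *Mrpl46* and *Mrps11*, to 0.68, in *Mrpl2* and *Mrps10*. The median was 0.19, against 0.09 over all 2211 pairs within the family.

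The clusters set limits on some genes. Means of the 67 genes ran from 4.40 for *Mrps18c*, followed by 4.71 for *Mrpl46*, to 8.20 for *Mrpl39* and 8.33 for *Mrpl52*. These intensities depend on the probes of each cluster and do not rank the genes. *Mrps18c* (adjusted *p* = 0.845 by diet), *Mrpl39* (0.720) and *Mrpl52* (0.464) did not differ past the threshold by diet in limma. A second cluster was present for 9 genes. For *Mrps18b* both clusters were well above the filter and correlated at 0.84 over strain means, whereas for *Mrps16* they did not (-0.03), and its strain result (adjusted *p* = 0.131) holds for 1 of them.

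The 4 genes that did not pass the filter were *Mrpl27* (3.18 ± 0.58 in HP livers and 3.29 ± 0.57 in HS livers), *Mrpl48* (3.03 ± 0.24 and 3.07 ± 0.24), *Mrps14* (2.74 ± 0.53 and 2.83 ± 0.52) and *Mrps36* (2.42 ± 0.39 and 2.43 ± 0.37; SD, n = 63 HP and 60 HS mice). Without the filter none of them passed by diet in limma (adjusted *p* of 0.702 to 0.975), and *Mrpl48* passed by strain (adjusted *p* = 0.000127). *Mrps36*, also named *Kgd4*, is now known as a subunit of the 2-oxoglutarate dehydrogenase complex and not of the ribosome.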

How the data were processed

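Liver RNA of 63 HP and 60 HS mice was measured with 1 array each. The authors deposited log2 intensities made by robust multi-array average (RMA) over all arrays, which corrects background, sets arrays to a common distribution and summarizes probes. Affymetrix Expression Console is the software in the submitters' processing notes, and its version and the genome build were not given in the sources used here. Arrays have no read depth, and their number limits the precision. Strain and diet came from the labels. Clusters with 1 symbol in the platform annotation were used. An expression filter modelled on the study's methods kept a cluster if its median, or its level in over 12.5% of mice, was above 4.08, the mean of the medians of these clusters. The study's earlier filter on probes was not applied here, so the genes tested are not the study's set. Diet, strain and their interaction were tested over 10942 genes by limma 3.58.1 (functions lmFit and eBayes, R 4.3.3), after a test on simulated data, with the Benjamini-Hochberg threshold at 0.05. Intervals of differences are at 95%. The *g*2 was computed from mean squares of a model with strain and diet. Tables were made with Python 3.11.15.

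The family, the gene lists and the rule for named genes were chosen with earlier results of these data known. The rule takes the 4 smallest *p* by diet in each direction, the 12 largest and 3 smallest F by strain, the 4 smallest interaction *p*, the 2 brightest and 2 dimmest genes and those that did not pass the filter, 31 genes in all. Coordinates of promoters are those of the RefSeq table (GRCm38.p6).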

Additional observations from a re-analysis of the deposited data

Results flagged for a closer look

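In each of the 22 strains, the highest or lowest mouse was compared with the others of its strain. This was done for *Mrpl32*, *Mrps17* and the mean over the 67 genes, which made 66 comparisons. The same mice enter each of these values, so the comparisons are not independent. Chance marks about 1 in 20 such comparisons, and 4 were marked, close to that rate. For *Mrpl32* in CC041/TauUnc an HS mouse had 6.15, while the other 4 had 5.31 to 5.45. For *Mrps17* in CC041/TauUnc an HP mouse had 6.47, below the 6.77 to 6.89 of the others. For the mean over the 67 genes, an HS mouse of CC030/GeniUnc had 6.26, below the 6.35 to 6.40 of the others, and an HS mouse of CC059/TauUnc had 6.72, above their 6.39 to 6.50.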

How the results depend on the processing

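The count by diet, 2 genes, was 6 with strain as a block (4 higher and 2 lower on the HP diet), a fit in which calls over all genes went up to 2544, against 1248 without it, and 1 to 3 when a strain or a numbered set of mice was left out. *Mrpl15* passed in every fit run (differences of 0.16 to 0.19). The count by strain, 56, was 37 to 56 with a strain or a numbered set of mice left out, and 51 to 60 in the other fits. The lowest, 37, came without the mice numbered 1 (55.2% of the family, against 67.7% of all genes) and the next, 38, without those numbered 3 (56.7%, against 67.9%), so the family's share was below that of all genes there. Without the mice numbered 2 the count was 42, a share near that of all genes (62.7%, against 64.0%). The count by interaction, 0, was 4 with array weights (5.97% of the family, against 2.14% of all genes) and 0 in every other fit run. No difference by diet changed sign in the 8 genes named for their *p* by diet. Leaving out the CC059/TauUnc mouse close to CC035/Unc, or the CC071/TauUnc mouse with low *Xist*, left the count by diet at 2. Which cause lies behind the changes with the block and with array weights was not tested. Cage was not used here, the strain test was run on probes without regard to sequence differences between strains, and raw array files were not used here, so brightness over background was not checked.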
